A study of Rattus norvegicus with 120 samples.

Results

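The ribosomal protein genes were followed in kidneys of male Sprague-Dawley rats treated with 3 immunosuppressants. A gene was a member where at least 1 probe set was assigned to it alone and its symbol was Rpl or Rps followed by a number, or Rpsa. These are symbols of cytoplasmic ribosomal proteins of the large (Rpl) or small (Rps) subunit. Ribosomal S6 kinases and symbols with a pseudogene (-ps) or "-like" suffix were left out. Copies with a plain l in the symbol stayed in, and ribosomal proteins with other symbols, such as Rplp0, are not members. This gave 47 members among 14217 genes with a symbol, with 54 probe sets between them, and each gene was represented by its brightest probe set. Of the members, 28 belonged to the large subunit, 14 to the small subunit, and 5 were paralog copies (Rpl26l1, Rpl39l1, Rpl3l, Rpl7l1 and Rps27l). Copies were told only by an l, or an l and a number, at the end of the symbol, so Rps4y2 was counted with the small subunit. A filter that left out the dimmest 25% of genes kept 42 members, 26 of the large subunit, 13 of the small subunit and 3 paralog copies. The 5 that did not pass it were Rpl3l, Rpl39l1, Rpl30, Rps13 and Rpl28, and they have no test.

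The ribosome is built from a small subunit, which reads the mRNA, and a large subunit, which forms the peptide bonds. Each holds ribosomal RNA and a fixed set of proteins that cells need in near-equal amounts, so their mRNAs are among the most abundant of most tissues. In vertebrates these mRNAs start with a C followed by a run of pyrimidines, the terminal oligopyrimidine tract, through which the kinase mTOR controls how well they are translated. Rapamycin inhibits mTOR. Cyclosporine and tacrolimus inhibit calcineurin, the phosphatase that activates NFAT in T cells. Arrays measure the amount of these mRNAs and not their translation.

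The rats, aged 5 to 7 weeks at the start, were given cyclosporine (CsA) at 25 or 2.5 mg/kg, tacrolimus (FK506) at 6 or 0.6 mg/kg, rapamycin (Rapa) at 10 or 1 mg/kg, or the olive oil vehicle, by daily intraperitoneal injection. They were killed 24 hours after their final dose, which was dose 1, 7, 14 or 28 and is called the day here, and RNA of each rat was hybridized to 1 of 120 arrays. At days 1, 7 and 14 each group held 4 rats, except FK506 6 mg/kg at day 14 with 3. At day 28 there were 4 rats for CsA 25 mg/kg, 5 for CsA 2.5 mg/kg, FK506 6 mg/kg and vehicle, and 6 for FK506 0.6 mg/kg and for both Rapa doses. The labels name each array by a rat, so the replicates are separate animals. Vehicle rats differed from day to day in age as well as in doses of oil.

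Levels are given as log2(intensity + 16), quantile normalized unless stated otherwise, and a change is a difference of group means on that scale, which understates changes of dim genes. Calls are adjusted p-values under 0.05 in limma's moderated test. The number of rats limits the precision of each value. Members were chosen by symbol and not by level, but the probe set kept for each was its brightest over all arrays. Both normalizations matter here, since most members lie at the bright end of each array. The median intensity of an array lay between 51.99 and 86.08. A single array (CsA 25 mg/kg, day 28, replicate 3) held 5273 zeros, 17% of its values, and no other array held any. In 4 arrays Alb, the liver's main secreted protein, was above a log2 level of 12: replicates 3 and 4 of CsA 25 mg/kg at day 1, replicate 4 of CsA 2.5 mg/kg at day 14 and replicate 2 of CsA 2.5 mg/kg at day 28. The hybridization controls, added in fixed amounts, were low in FK506 6 mg/kg (mean log2 level 9.425) and Rapa 1 mg/kg (9.944) at day 28, against 10.89 in vehicle. The kidney list (uromodulin, megalin and 9 others) was measured with all 11 of its genes above the dim limit, and its summed intensity at day 28 ran from 41316 to 44181 with CsA 25 mg/kg, 43620 to 47483 with FK506 6 mg/kg, 46056 to 50934 with FK506 0.6 mg/kg, 51813 to 58898 with Rapa 10 mg/kg and 49527 to 58003 with Rapa 1 mg/kg, against 53148 to 58844 in vehicle kidneys. The first 3 of these groups lay wholly below vehicle.

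The promoters of 8 members named below are shown to compare their starts with the pyrimidine tract. RefSeq (GRCr8) gave a promoter window for 42 of the 47 members, 2 of them matched by symbol. Each sequence holds 40 bases before the annotated start and 20 from it, and capitals mark the longest run of C or T inside the 20 bases on either side of the start, where bases of a run outside that window were not counted. The first 6 are members with the largest rises at day 28, and the last 2 are paralog copies.
Rps15a, chr1:181860265-181860324, minus strand: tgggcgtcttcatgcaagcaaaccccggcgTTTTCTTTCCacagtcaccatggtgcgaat
Rps6, chr5:106420521-106420580, minus strand: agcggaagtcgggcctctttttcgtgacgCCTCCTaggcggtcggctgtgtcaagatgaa
Rps3, chr1:163195757-163195816, minus strand: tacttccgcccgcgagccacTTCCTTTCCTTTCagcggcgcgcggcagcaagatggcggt
Rpl4, chr8:73566437-73566496, plus strand: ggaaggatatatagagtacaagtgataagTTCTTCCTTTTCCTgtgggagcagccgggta
Rpl23, chr10:83272165-83272224, minus strand: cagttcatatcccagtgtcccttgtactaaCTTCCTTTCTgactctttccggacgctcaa
Rpl6, chr12:41011671-41011730, minus strand: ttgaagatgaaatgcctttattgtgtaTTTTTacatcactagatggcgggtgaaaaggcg
Rpl26l1, chr10:17029009-17029068, minus strand: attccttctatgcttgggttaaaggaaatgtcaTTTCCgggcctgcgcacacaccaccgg
Rps27l, chr8:76443618-76443677, plus strand: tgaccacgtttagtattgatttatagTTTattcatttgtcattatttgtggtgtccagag

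Runs of pyrimidines were longer at the members' starts than at other starts. A run of 8 or more C or T lay within 20 bases of the start in 27 of 42 members (64.3%), against 15.5% of all 33469 windows of the table. Rps15a, Rps3, Rpl4 and Rpl23 have such a run inside that window and Rps6 and Rpl6 do not. In Rps6 a longer run, cctctttttc, begins before the window and reaches into it, so it was counted only in part. All of the first 6 bases were C or T in 12 members (28.6%), against 3.03% of all windows, and 8 members (19%) also began with C, against 1.61%. The first base was C in 16 members (38.1%), against 24.1%. Of the 5 paralog copies, 1 had a run of 8 or more. The letters CCGGAAG, bound by ETS factors, were found on either strand of the 300-base window in 10 members (23.8%) and 8.75% of all windows, and AAGATGG, bound by YY1, in 8 (19%) and 7.01%. The longest run was measured after the data had been seen, and these matches are descriptions of letters, not of binding sites or of true transcript starts.

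Most members gave very bright probe sets. Levels of 37 members were above log2 11, at or above the 97.45th percentile of all genes, and 34 lay above the 98th. Rps29 (mean log2 level 13.81 over all arrays), Rpl26 (13.52), Rpl7a and Rps23 were the brightest, and Rpl39l1, Rpl3l, Rpl30 and Rps13 the dimmest. The order of brightness is one of probe sets and not of mRNA amounts. Rpl28, Rpl30 and Rps13 are also listed, with pseudogenes or copies, on bright probe sets that the rule does not take. Over the 120 arrays, after group means were subtracted, a member's correlation with the median of the other members had a median of 0.539 (Pearson r), with 26 of 42 members above 0.5. Without quantile normalization the median was 0.691 and 31 members were above 0.5, and arrays share their overall brightness in both. Rps15, Rpl27a, Rpl22 and Rpl35 followed the others most closely (r from 0.698 to 0.752), and Rpl39, Rpl7l1, Rps4y2 and Rpl26l1 least (r from -0.102 to 0.05). Those 4 and Rps27l were the 5 tested members with levels under log2 11.

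After 28 doses, ribosomal protein mRNAs were higher with each drug except at the lower CsA dose. CsA 25 mg/kg kidneys had 34 of 42 members called higher and 1 lower, where 10.5% of all 10663 genes were called higher and 10.7% lower. With FK506 6 mg/kg 31 were higher and 0 lower, against 8.73% of all genes higher, and Rapa 10 mg/kg kidneys 32 higher and 0 lower, against 7.57%. Rapa 1 mg/kg gave 25 higher (4.75% of all genes) and FK506 0.6 mg/kg 17 higher (2.59%). With CsA 2.5 mg/kg no member was called by limma, and 0 had an unadjusted p under 0.05. The FK506 0.6 mg/kg count was 10 without vehicle replicate 2 and 6 in a fit of the day 28 arrays alone, where Rapa 1 mg/kg had 15. The changes were small. The median member change was 0.28 for CsA 25 mg/kg, 0.24 for FK506 6 mg/kg, 0.22 for Rapa 10 mg/kg, 0.20 for Rapa 1 mg/kg, 0.15 for FK506 0.6 mg/kg and 0.02 for CsA 2.5 mg/kg, and over all genes tested it lay between -0.008229 and 0.01636. All 6 comparisons use the same 5 vehicle rats, so a high or low vehicle mean moves them together. In whole kidney, more cells of a type and more mRNA per cell cannot be told apart.

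**Figure D1:**
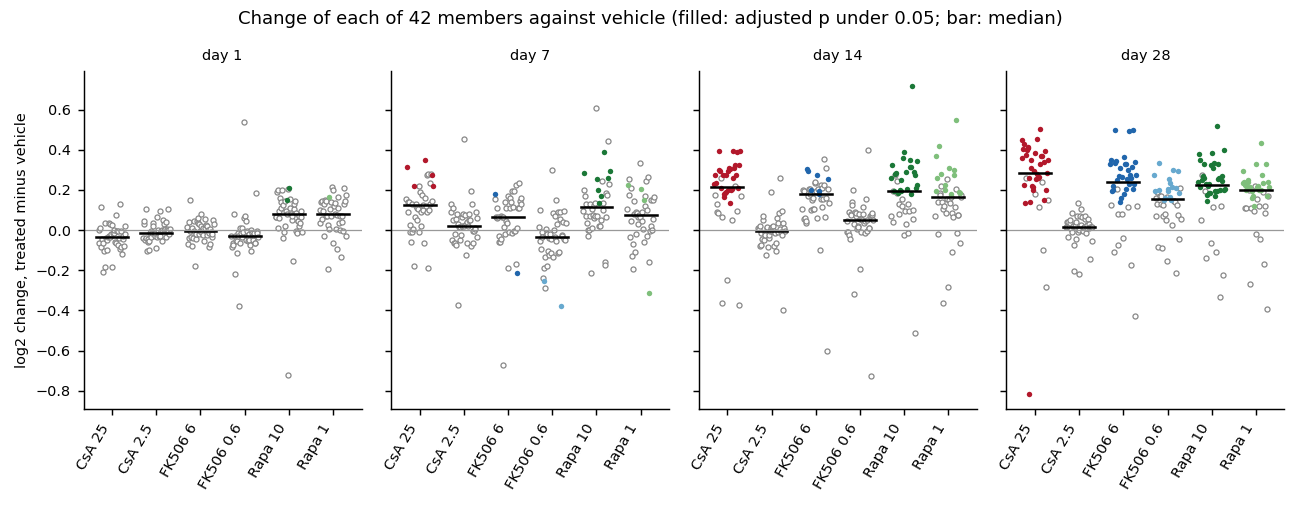
Change of each of the 42 tested members against the vehicle rats of the same day, as the difference of mean log2(intensity + 16), with 1 panel per day and the treatments along the axis. Filled points were called, open points were not, and bars are medians. At day 28 the medians for CsA 25, FK506 6 and Rapa 10 mg/kg were 0.28, 0.24 and 0.22.

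Both subunits took part. Of 26 large subunit members, CsA 25 mg/kg had 24 higher, FK506 6 mg/kg 20, Rapa 10 mg/kg 21, Rapa 1 mg/kg 17 and FK506 0.6 mg/kg 12. Of 13 small subunit members the counts were 10, 11, 11, 8 and 5 in the same order. No large or small subunit member was called lower at day 28. The 1 member lower was the paralog copy Rpl26l1, described further on.

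The rise was also seen as a shift of the median of the 42 members in each rat. At day 28 this median was 12.777 ± 0.123 in CsA 25 mg/kg kidneys (SD, n = 4), 12.73 ± 0.0393 with FK506 6 mg/kg (n = 5), 12.709 ± 0.0431 with Rapa 10 mg/kg (n = 6), 12.677 ± 0.0527 with Rapa 1 mg/kg (n = 6), 12.644 ± 0.0579 with FK506 0.6 mg/kg (n = 6) and 12.445 ± 0.0707 with CsA 2.5 mg/kg (n = 5), against 12.428 ± 0.0545 in vehicle kidneys (n = 5). The lowest rat of those first 5 groups had 12.564 and the highest vehicle rat 12.483, so none of these groups overlapped vehicle. CsA 2.5 mg/kg overlapped it.

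**Figure D2:**
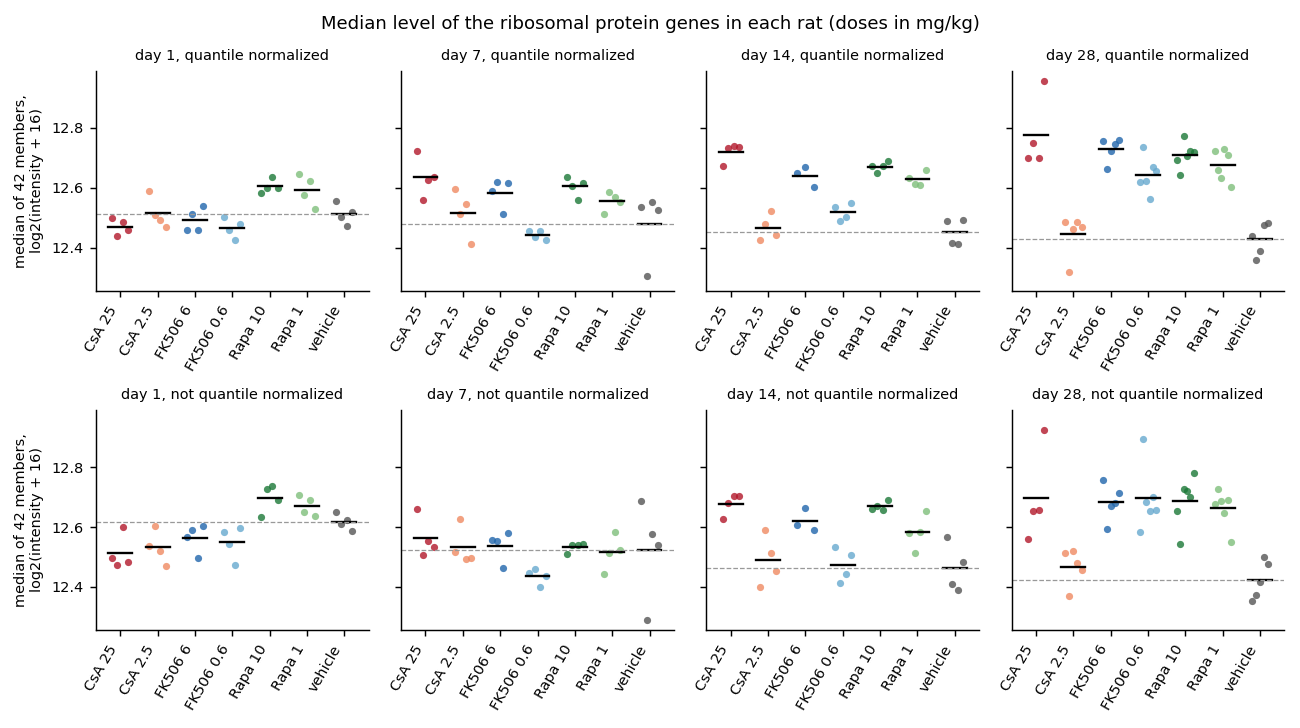
Median log2(intensity + 16) of the 42 tested members in each rat, with days in columns of panels and the values with and without quantile normalization in rows. Points are rats and bars are group means. At day 28 the quantile normalized values of CsA 25 mg/kg rats lay between 12.698 and 12.958 and those of vehicle rats between 12.358 and 12.483.

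Rps15a, a protein of the small subunit, changed most among the called subunit members with CsA 25 and Rapa 10 mg/kg. Its levels were 12.45, 12.51, 12.51 and 12.89 in CsA 25 mg/kg kidneys, and 12.61, 12.39, 12.51, 12.7 and 12.72 in FK506 6 mg/kg kidneys. With Rapa 10 mg/kg the lowest, median and highest were 12.52, 12.62 and 12.7, and with Rapa 1 mg/kg 12.35, 12.55 and 12.64. Vehicle kidneys had 12.17, 11.99, 12.01, 12.15 and 12.14. All rats of these 4 groups were above all vehicle rats, and replicate 4 of CsA 25 mg/kg stood highest. The change was 0.50 (SE 0.0833, adjusted p = 2.6e-06 in limma) for CsA 25 mg/kg, 0.49 (SE 0.0785, adjusted p = 1.77e-06) for FK506 6 mg/kg and 0.52 (SE 0.0752, adjusted p = 1.77e-07) for Rapa 10 mg/kg, about 1.42-, 1.41- and 1.43-fold. FK506 0.6 mg/kg rats had 12.3, 12.35 and 12.59 (lowest, median, highest), also above vehicle, with a change of 0.30 (adjusted p = 0.00893). CsA 2.5 mg/kg rats, at 12.16, 12.04, 12.13, 12.11 and 12.3, overlapped vehicle.

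Rps6, the small subunit protein that S6 kinase phosphorylates downstream of mTOR, had 12.81, 12.97, 13.01 and 13.1 in CsA 25 mg/kg kidneys. FK506 6 mg/kg kidneys had 13.1, 12.9, 13.08, 13.02 and 13.03. In Rapa 10 mg/kg kidneys it ran from 12.88 over a median of 13.10 to 13.27, and vehicle kidneys had 12.78, 12.61, 12.64, 12.68 and 12.74. Each of these 3 treated groups lay above vehicle without overlap, with the gap narrowest for CsA 25 mg/kg. Rps6 rose by 0.28 with CsA 25 mg/kg (SE 0.0583, adjusted p = 0.000136), by 0.34 with FK506 6 mg/kg (adjusted p = 2.7e-06) and by 0.40 with Rapa 10 mg/kg (adjusted p = 1.35e-08). The lower doses overlapped vehicle and were called at 0.24 for Rapa 1 mg/kg (adjusted p = 0.001) and 0.19 for FK506 0.6 mg/kg (adjusted p = 0.023).

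Rps6 was not called at day 1 and was called with all 3 higher doses at days 14 and 28. At day 1 it averaged 12.737 ± 0.111 with CsA 25 mg/kg, 12.797 ± 0.0315 with FK506 6 mg/kg and 12.911 ± 0.0405 with Rapa 10 mg/kg, against 12.816 ± 0.101 in vehicle kidneys (SD, n = 4 each), and none was called by limma. At day 7 it averaged 12.915 ± 0.146, 12.785 ± 0.0603 and 12.9 ± 0.0258 in these treated groups, in the same order, against 12.642 ± 0.0658 in vehicle kidneys. CsA 25 and Rapa 10 mg/kg were called there (0.27 and 0.26, adjusted p = 0.00332 and 0.00334) and FK506 6 mg/kg was not (0.14, adjusted p = 0.205). At day 14 it averaged 13.061 ± 0.00691, 12.991 ± 0.0389 (n = 3) and 12.95 ± 0.0461, against 12.738 ± 0.0851 in vehicle kidneys, and all 3 were called (0.32, 0.25 and 0.21, adjusted p = 0.000123, 0.0195 and 0.0151). Without quantile normalization both day 7 calls were lost in limma (adjusted p = 0.234 for CsA 25 mg/kg and 0.205 for Rapa 10 mg/kg). At day 14 those of FK506 6 and Rapa 10 mg/kg were lost as well (adjusted p = 0.0715 and 0.0603), and that of CsA 25 mg/kg held (0.31, adjusted p = 0.00355).

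Rps3, which lies where the mRNA enters the small subunit, was highest with FK506. It had 12.91, 12.48, 12.76, 12.79 and 12.84 in FK506 6 mg/kg kidneys and 12.42, 12.72, 12.67 and 12.79 in CsA 25 mg/kg kidneys. In Rapa 10 mg/kg kidneys it ran from 12.3 over 12.54 to 12.65, and vehicle kidneys had 12.19, 12.21, 12.35, 12.28 and 12.26. Both calcineurin inhibitor groups were clear of vehicle, and 2 Rapa 10 mg/kg rats fell within the vehicle range. The changes were 0.50 (adjusted p = 5.93e-06) for FK506 6 mg/kg, 0.40 (adjusted p = 0.00048) for CsA 25 mg/kg and 0.24 (adjusted p = 0.0261) for Rapa 10 mg/kg.

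Among large subunit members, Rpl4 lines the exit tunnel for the growing peptide. It had 12.38, 12.47, 12.3 and 12.8 in CsA 25 mg/kg kidneys and 12.54, 12.39, 12.38, 12.48 and 12.56 in FK506 6 mg/kg kidneys. In Rapa 10 mg/kg kidneys Rpl4 ran from 12.43 over 12.49 to 12.53, against 12.12, 12.06, 12.1, 12.11 and 12.13 in vehicle kidneys. None of the 3 groups overlapped vehicle, and the changes were 0.38 (adjusted p = 5.71e-07), 0.37 (adjusted p = 7.53e-07) and 0.38 (adjusted p = 5.8e-08) for CsA 25, FK506 6 and Rapa 10 mg/kg.

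Rpl23 sits at the interface of the subunits and can bind Mdm2, the inhibitor of p53. Its levels were 12.69, 12.72, 12.89 and 12.91 in CsA 25 mg/kg kidneys and 13.04, 12.68, 12.81, 12.98 and 13 in FK506 6 mg/kg kidneys. In Rapa 10 mg/kg kidneys Rpl23 ran from 12.49 over 12.77 to 12.89, and vehicle kidneys had 12.47, 12.3, 12.36, 12.4 and 12.49. The lowest Rapa 10 mg/kg rat was level with the highest vehicle rat, and the other 2 groups were clear of it. Rpl23 rose by 0.40 (adjusted p = 4.45e-06), 0.50 (adjusted p = 9.97e-09) and 0.33 (adjusted p = 3.65e-05) for CsA 25, FK506 6 and Rapa 10 mg/kg.

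Rpl6, another large subunit protein, had 12.56, 12.62, 12.45 and 12.76 in CsA 25 mg/kg kidneys, 12.53, 12.36, 12.55, 12.49 and 12.41 in FK506 6 mg/kg kidneys and 12.24, 12.44 and 12.79 (lowest, median, highest) in Rapa 10 mg/kg kidneys. In vehicle kidneys it had 12.15, 12.09, 12.15, 12.16 and 12.15. All 3 groups lay above vehicle, Rapa 10 mg/kg with the widest spread. The changes were 0.45 (adjusted p = 4.38e-07), 0.33 (adjusted p = 0.000133) and 0.33 (adjusted p = 4.58e-05).

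**Figure D3:**
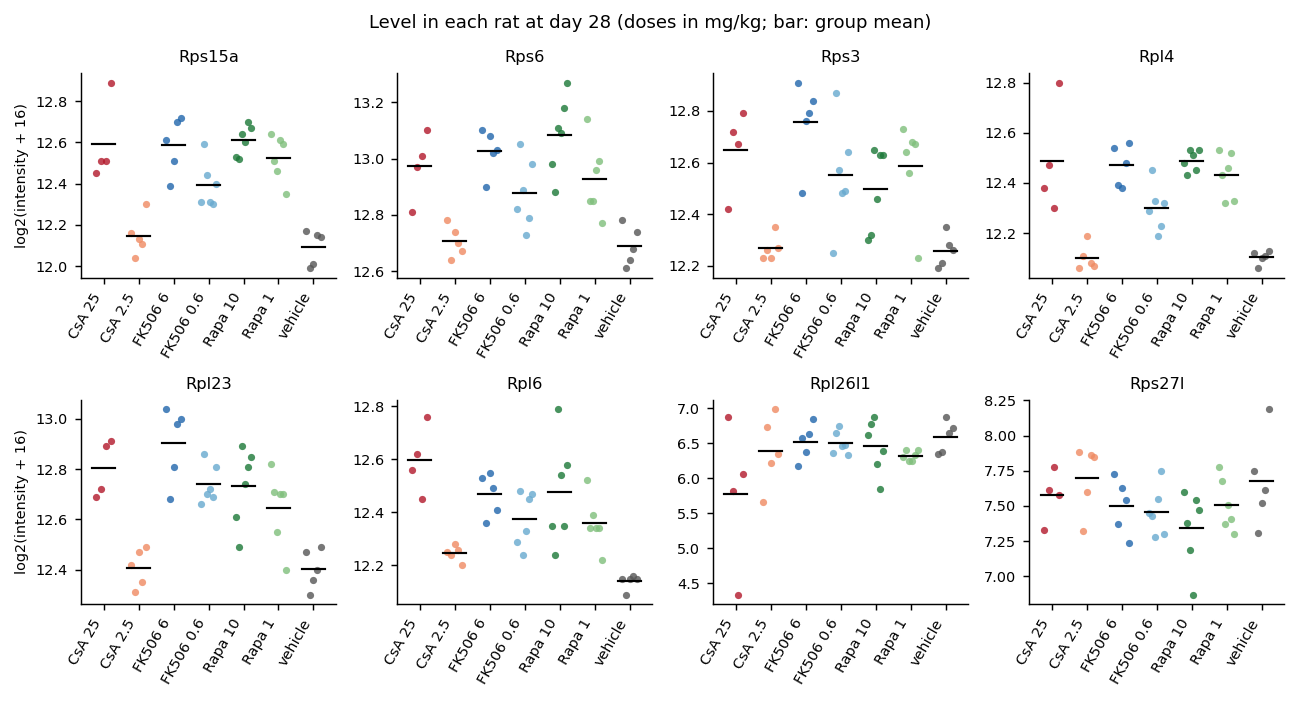
Level of 8 members in each rat at day 28 as log2(intensity + 16), 1 panel per gene, with treated groups to the left of vehicle. Points are rats and bars group means. The group means of Rps15a, Rps6, Rps3, Rpl4, Rpl23 and Rpl6 were higher in the 3 higher-dose groups than in vehicle, while Rpl26l1 and Rps27l overlapped vehicle in each group, and Rpl26l1 was at 4.34 in 1 CsA 25 mg/kg rat.

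Other members known outside the ribosome also rose. Rpl5 and Rpl11, which with 5S rRNA bind Mdm2, changed by 0.28 and 0.45 with CsA 25 mg/kg (adjusted p = 8.88e-05 and 6.01e-11), by 0.33 and 0.33 with FK506 6 mg/kg (adjusted p = 2.1e-06 and 2.28e-07) and by 0.31 and 0.24 with Rapa 10 mg/kg (adjusted p = 3.59e-06 and 6.75e-05). Rpl3, a core protein of the large subunit, rose by 0.35 with CsA 25 mg/kg, 0.31 with FK506 6 mg/kg and 0.22 with Rapa 10 mg/kg (adjusted p = 6.13e-09, 5.24e-08 and 3.96e-05). Rpl22 rose by 0.37, 0.34 and 0.27 in the same order, and Rpl26, which binds p53 mRNA in human cells, by 0.26, 0.25 and 0.23. Rpl14, Rpl23a and Rpl24 were among the 8 largest changes with CsA 25 mg/kg (0.43, 0.42 and 0.41), Rpl12 and Rpl23a with FK506 6 mg/kg (0.35 and 0.35), and Rpl12 and Rps23 with Rapa 10 mg/kg (0.38 and 0.33).

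Some members were not called with all drugs. Rpl13a, which in human monocytes also takes part in silencing interferon-induced mRNAs, changed by 0.40 with CsA 25 mg/kg (adjusted p = 0.00017) and 0.35 with Rapa 10 mg/kg (adjusted p = 0.000355), and by 0.12 with FK506 6 mg/kg (adjusted p = 0.308). The difference itself was called both between CsA 25 and FK506 6 mg/kg (0.28, adjusted p = 0.0294) and between FK506 6 and Rapa 10 mg/kg (-0.23, adjusted p = 0.0376). Rpsa, a small subunit protein also known as the laminin receptor, changed by 0.21 with Rapa 10 mg/kg (adjusted p = 0.00311) and 0.21 with Rapa 1 mg/kg, and by 0.15 with CsA 25 mg/kg (adjusted p = 0.0535) and 0.12 with FK506 6 mg/kg (adjusted p = 0.134). Rps29, the brightest member, changed by 0.15 with CsA 25 mg/kg (adjusted p = 0.0195), 0.21 with FK506 6 mg/kg (adjusted p = 0.000837) and 0.12 with Rapa 10 mg/kg (adjusted p = 0.059). For CsA 25 mg/kg it was 0.006837 without quantile normalization. Neither Rpsa nor Rps29 was called in the direct comparisons of FK506 6 mg/kg with the other drugs at day 28. A dimmer probe set of Rpsa was called higher with CsA 25, FK506 6 and Rapa 10 mg/kg (0.264, 0.249 and 0.294) in a fit over all probe sets. A still dimmer one was not called with any of them. The members not called with CsA 25 mg/kg were Rpl21, Rps24, Rpl39, Rpsa, Rpl7l1, Rps27l and Rps4y2. Rps4y2 had the lowest changes of the small subunit, -0.28 with CsA 25 mg/kg, -0.43 with FK506 6 mg/kg and -0.22 with Rapa 10 mg/kg (adjusted p = 0.322, 0.0997 and 0.439).

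**Figure D4:**
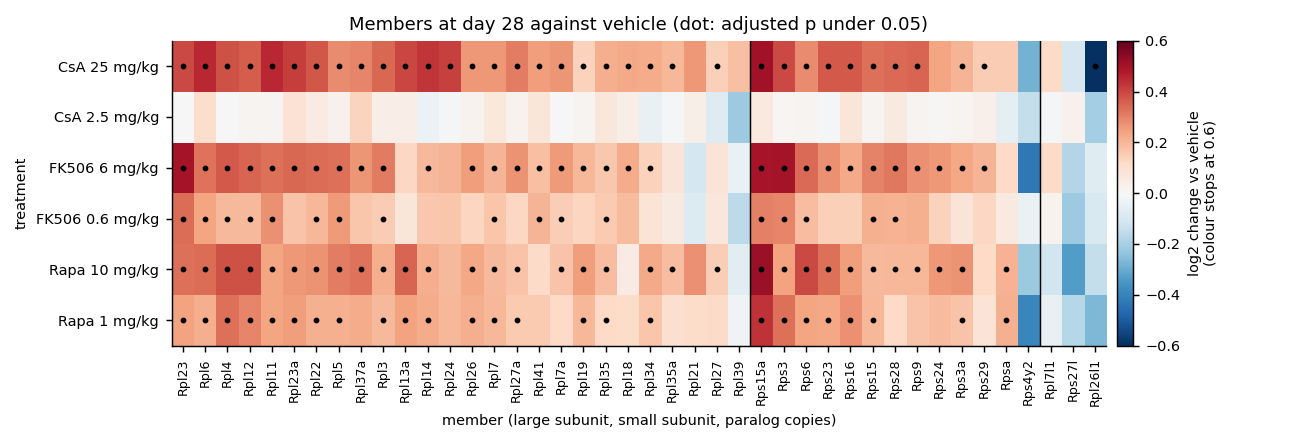
Change of each tested member against vehicle at day 28 (difference of mean log2 levels, colour scale), with members in columns grouped as large subunit, small subunit and paralog copies, and treatments in rows. Dots mark adjusted p under 0.05. The row of CsA 2.5 mg/kg holds no dot and that of CsA 25 mg/kg holds 35.

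The tested paralog copies did not follow most subunit members. Their probe sets were also dimmer than most, with mean levels of 6.40 for Rpl26l1, 7.49 for Rps27l and 9.56 for Rpl7l1. Rpl39 and Rps4y2, counted with the subunits, were dim as well (6.79 and 7.23). Over all arrays they did not follow the other members either (r = -0.102 and 0.0225). Whether the copies differed as copies or through their dim probe sets was not tested. Rpl26l1, a copy of Rpl26, had 6.88, 5.82, 4.34 and 6.06 in CsA 25 mg/kg kidneys, against 6.35, 6.37, 6.88, 6.65 and 6.71 in vehicle kidneys. The groups overlapped, and the lowest value came from the array that holds all the zeros. Its change of -0.81 (SE 0.267, adjusted p = 0.0189) was -0.34 and not called without that array. Rps27l, a p53 target in human cells, had 7.33, 7.61, 7.78 and 7.58 in CsA 25 mg/kg kidneys and 6.87, 7.42 and 7.6 (lowest, median, highest) in Rapa 10 mg/kg kidneys at day 28, against 7.75, 7.31, 7.52, 7.61 and 8.19 in vehicle kidneys. All groups overlapped and none was called. At day 14 it had 7.82, 8.17, 7.55 and 8.15 with Rapa 10 mg/kg and 7.6, 7.62, 7.89 and 7.9 with Rapa 1 mg/kg, against 7.21, 6.84, 7.35 and 7.41 in vehicle kidneys. Neither Rapa group overlapped vehicle there. The changes were 0.72 (SE 0.167, adjusted p = 0.00187) and 0.55 (adjusted p = 0.0241), the largest called changes against vehicle among the members at day 14. Rps4y2 changed by -0.73 with FK506 0.6 mg/kg at that day and was not called (adjusted p = 0.0554). Rpl7l1 was not called against vehicle with any drug at day 28. It was higher with CsA 25 than with Rapa 10 mg/kg at day 28 (0.22, adjusted p = 0.0097) and at day 1 (0.23, adjusted p = 0.0334), and higher with FK506 6 than with Rapa 10 mg/kg at day 28 (0.23, adjusted p = 0.00856).

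Quantile normalization moved the counts but not the direction at day 28. Without it CsA 25 mg/kg had 24 members higher and 1 lower (10% and 11.8% of all genes), FK506 6 mg/kg 24 higher (9.1%), Rapa 10 mg/kg 28 higher (7.79%), Rapa 1 mg/kg 23 higher (4.72%) and FK506 0.6 mg/kg 25 higher (3.46%). The medians were 0.23, 0.20, 0.21, 0.20 and 0.22 in the same order. FK506 0.6 mg/kg was the group whose count and median were larger without it than with it. The rats' medians were then 12.699 ± 0.157 with CsA 25 mg/kg and 12.696 ± 0.105 with FK506 0.6 mg/kg, against 12.424 ± 0.0636 in vehicle kidneys (SD, n = 4, 6 and 5). On this scale vehicle kidneys averaged 12.619 at day 1 and were lower at day 28. Rapa 10 mg/kg kidneys averaged 12.697 at day 1 and 12.687 at day 28, and Rapa 1 mg/kg kidneys 12.671 and 12.664. The averages were 12.514 and 12.699 with CsA 25, 12.564 and 12.683 with FK506 6, and 12.549 and 12.696 with FK506 0.6 mg/kg. So for Rapa the day 28 gap came with a lower vehicle level and not with a higher treated level than at day 1.

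The rise was set against other genes with bright probe sets, a comparison added after the data had been seen. At day 28 with CsA 25 mg/kg, 34 of the 37 members above log2 11 (91.9%) were called higher, and of 823 other genes above it 106 (12.9%) were higher and 177 (21.5%) lower. With FK506 6 mg/kg the shares higher were 83.8% and 13.5%, with Rapa 10 mg/kg 86.5% and 14.9%, with Rapa 1 mg/kg 67.6% and 10.6%, and with FK506 0.6 mg/kg 45.9% and 4.5%. The median change with CsA 25 mg/kg was 0.308 for these members and -0.0417 for the other genes above log2 11. Most of those were dimmer than the dimmest of the 37 members, Rpl21 (mean log2 level 11.947). The 327 other genes at least as bright as Rpl21 had 7.34% higher with CsA 25 mg/kg, 11% with FK506 6 mg/kg, 10.7% with Rapa 10 mg/kg, 8.26% with Rapa 1 mg/kg and 4.28% with FK506 0.6 mg/kg, and 28.7%, 22.6%, 25.7%, 16.8% and 6.73% lower, in the same order. Without quantile normalization between 62.2% and 75.7% of the 37 members were higher in these 5 comparisons. No test was made of the difference between members and other bright genes.

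**Figure D5:**
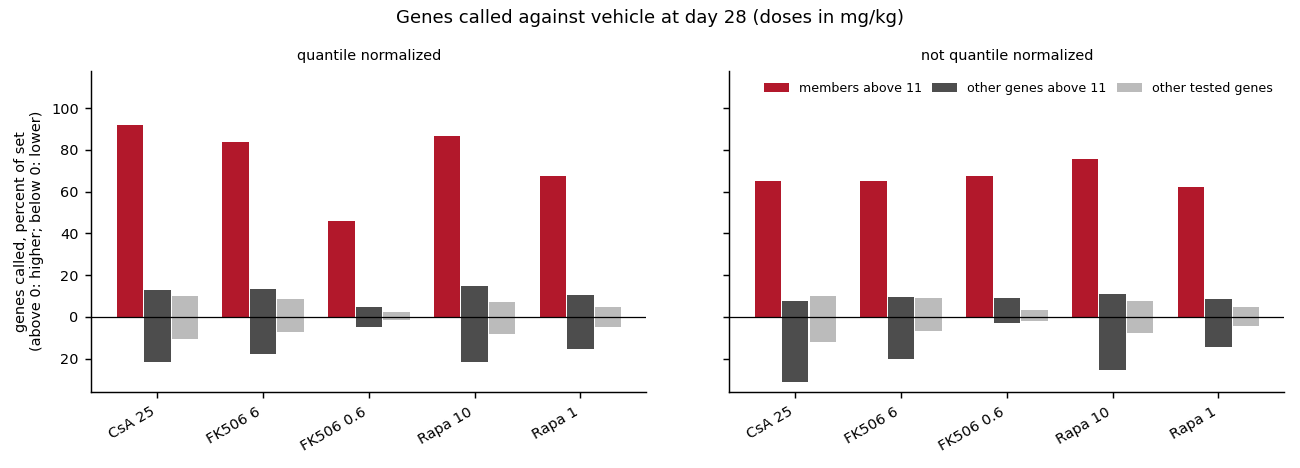
Share of genes called at day 28 against vehicle, in percent of each set, with higher genes drawn above 0 and lower genes below, for the 37 members above a mean log2 level of 11, the 823 other genes above it and all 10621 other tested genes. The left panel is quantile normalized and the right one is not. With CsA 25 mg/kg 91.9% of the bright members and 12.9% of the other genes above 11 were higher.

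At day 14 the members were already higher at the higher doses. CsA 25 mg/kg had 29 members higher and 0 lower (4.75% of all genes higher), with a median change of 0.21. Rapa 10 mg/kg had 23 higher (5.2%, median 0.20), Rapa 1 mg/kg 14 higher (4.08%, median 0.17) and FK506 6 mg/kg, with 3 rats, 7 higher (1.24%, median 0.18). No member was called in FK506 0.6 mg/kg kidneys, where limma gave 4 higher and 1 lower at an unadjusted p under 0.05, or in CsA 2.5 mg/kg kidneys, where it gave 0. Rpl23, Rps9 and Rps15a led with CsA 25 mg/kg (0.40, 0.39 and 0.39, adjusted p = 4.86e-05, 0.000411 and 0.00147). Rpl4 and Rpl37a followed Rps27l with Rapa 10 mg/kg (0.39 and 0.36, adjusted p = 5.82e-06 and 0.00523), Rpl21 and Rpl13a with Rapa 1 mg/kg (0.42 and 0.37, adjusted p = 0.0306 and 0.00309), and Rpl22, Rpl23 and Rpl5 led with FK506 6 mg/kg (0.30, 0.29 and 0.28, adjusted p = 0.00517, 0.0195 and 0.00793).

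At day 14, 30 members lay above vehicle without overlap with CsA 25, 24 with FK506 6 and 27 with Rapa 10 mg/kg. Of all genes 7.47%, 6.41% and 7.66% did. With FK506 6 mg/kg 1 member lay wholly below vehicle, and 0 did with the other 2. Rpl4, among the largest changes with Rapa 10 mg/kg, is shown as an example. Its levels were 12.3, 12.34, 12.34 and 12.48 in CsA 25 mg/kg kidneys, 12.22, 12.29 and 12.29 in FK506 6 mg/kg kidneys and 12.44, 12.5, 12.48 and 12.43 in Rapa 10 mg/kg kidneys, against 12.17, 12.01, 12.05 and 12.06 in vehicle kidneys. None of the 3 groups overlapped vehicle, and the Rapa rats were highest. Without quantile normalization the day 14 counts were 16 higher for CsA 25 mg/kg (4.24% of all genes), 16 for Rapa 10 mg/kg (5.04%), 6 for Rapa 1 mg/kg (4.4%) and 1 for FK506 6 mg/kg (0.957%), with none lower. The Rapa 1 mg/kg count was 9 without vehicle replicate 2 or 3 and 7 without its own replicate 4. The FK506 6 mg/kg count was 2 without its replicate 1 and 1 without its replicate 2.

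At day 7 few members were called and the calls went both ways. Rapa 10 mg/kg had 8 higher (3% of all genes), led by Rps24, Rpsa and Rpl12 (0.39, 0.29 and 0.28, adjusted p = 0.00812, 0.000945 and 0.000612), and CsA 25 mg/kg 5 higher (2.17%), led by Rps15a, Rpl12 and Rps6 (0.35, 0.31 and 0.27, adjusted p = 0.00926, 0.000226 and 0.00332). Rapa 1 mg/kg had 3 higher (1.61%), among them Rpl12 and Rpl4 (0.22 and 0.21), and 1 lower (2.61%). FK506 6 mg/kg had 1 higher (1.78%), Rpl11 (0.18, adjusted p = 0.0451), and 1 lower (1.42%), and FK506 0.6 mg/kg 2 lower (1.03%). The median changes were 0.11, 0.12, 0.08, 0.07 and -0.03 in the order Rapa 10, CsA 25, Rapa 1, FK506 6 and FK506 0.6 mg/kg. With CsA 2.5 mg/kg none was called, and limma gave 1 higher and 1 lower at an unadjusted p under 0.05.

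Rps28, a small protein near the mRNA exit site of the small subunit, was the member that was called lower at day 7 in 3 comparisons. It had 12.06, 12.06, 12.15 and 12.08 in FK506 0.6 mg/kg kidneys, 12.23, 12.23, 12.29 and 12.27 in FK506 6 mg/kg kidneys and 12.06, 12.15, 12.21 and 12.2 in Rapa 1 mg/kg kidneys, against 12.49, 12.47, 12.48 and 12.43 in vehicle kidneys. All 3 groups lay below vehicle without overlap, and the 4 vehicle rats lay close together. The changes were -0.38 (SE 0.0661, adjusted p = 0.000138), -0.22 (adjusted p = 0.0493) and -0.31 (adjusted p = 0.00163). CsA 25 mg/kg (12.11 to 12.41) and Rapa 10 mg/kg kidneys (12.19 to 12.35) also lay below vehicle and were not called, and CsA 2.5 mg/kg overlapped it. These vehicle rats were high, above all vehicle rats of days 1 (12.33 to 12.4), 14 (12.29 to 12.41) and 28 (12.19 to 12.28). The call for FK506 6 mg/kg was lost without any 1 of its 4 rats or of the 4 vehicle rats. Rpl22 was the other member lower with FK506 0.6 mg/kg (-0.25, adjusted p = 0.0165). At day 14 Rps28 was not called with FK506 0.6, FK506 6 or Rapa 1 mg/kg (0.01, 0.23 and -0.01, adjusted p = 0.97, 0.0635 and 0.93), and it was higher with CsA 25 mg/kg (0.28, adjusted p = 0.00345).

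The day 7 counts moved with the normalization and with single rats. Without quantile normalization CsA 25 mg/kg had 1 member higher and 1 lower (2.69% and 2.18% of all genes), Rapa 10 mg/kg 1 lower (4.47%), Rapa 1 mg/kg 2 lower (2.79%), FK506 6 mg/kg 1 lower (1.5%) and FK506 0.6 mg/kg 3 lower (1.35%). The medians for CsA 25 and Rapa 10 mg/kg were then 0.00992 and 0.01633. The members' median in vehicle replicate 2 was 12.304, and the other 3 vehicle rats had 12.526, 12.535 and 12.551. Without that rat the counts were 4 higher for CsA 25 mg/kg, 4 higher for Rapa 10 mg/kg, 1 higher and 1 lower for Rapa 1 mg/kg, 0 for FK506 6 mg/kg and 5 lower for FK506 0.6 mg/kg. The count for CsA 25 mg/kg was 8 without vehicle replicate 1. That for Rapa 10 mg/kg was 5 without its replicate 1, 2 or 4, and that for Rapa 1 mg/kg 2 without its replicate 1, 2 or 3. The FK506 0.6 mg/kg count was 1 without its replicate 1. The FK506 6 mg/kg count was 1 without vehicle replicate 4 and 0 without any 1 of its own rats. The Gapdh control, as log2 of its 3-prime over its 5-prime signal and a sign of RNA quality, was 0.426 with CsA 25, 0.437 with FK506 6 and with FK506 0.6, 0.391 with Rapa 10 and 0.424 with Rapa 1 mg/kg at day 7, against 0.727 in vehicle. With it as a covariate 7 members were higher with CsA 25 mg/kg, 11 with Rapa 10 mg/kg and 2 with FK506 6 mg/kg, 2 were higher and 1 lower with Rapa 1 mg/kg, and 1 was lower with FK506 0.6 mg/kg.

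After a single dose no member was called with CsA or FK506 at either dose. At an unadjusted p under 0.05 limma gave 1 lower with CsA 25 mg/kg, 1 higher with FK506 6 mg/kg and 0 at the lower doses, and the medians lay between -0.03584 and -0.003914. Rapa 1 mg/kg had Rpl3 higher (0.16, SE 0.0478, adjusted p = 0.0373), 1 of 42 members where 1.96% of all genes were higher. Rapa 10 mg/kg had Rpl4 and Rpl35 higher (0.21 and 0.15, adjusted p = 0.0478 and 0.0444), 2 of 42 where 1.7% of all genes were. The medians were 0.08 for both Rapa doses. Rpl4 had 12.29, 12.31, 12.31 and 12.41 in Rapa 10 mg/kg kidneys, against 12.12, 12.26, 11.93 and 12.17 in vehicle kidneys, with no overlap. The count for Rapa 1 mg/kg was 0 without vehicle replicate 3 or 4 or its own replicate 2 or 3. The count for Rapa 10 mg/kg was 0 without vehicle replicate 1, 3 or 4 or without any 1 of its own rats. The same Gapdh ratio was 0.674 with Rapa 1 mg/kg and 0.739 with Rapa 10 mg/kg at day 1, against 0.326 in vehicle, and with it as a covariate neither comparison had a call.

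The change from the first to the 28th dose was tested as a difference of differences for the higher doses. CsA 25 mg/kg had 24 members with a larger effect at day 28 (2.83% of all genes, median 0.33), FK506 6 mg/kg 18 (1.89%, median 0.24) and Rapa 10 mg/kg 4 (2.19%, median 0.15), with 0 smaller. Without quantile normalization the counts were 20 (2.38%), 15 (2.07%) and 2 (2.2%). Rpl23a, Rps3 and Rpl14 led with CsA 25 mg/kg (0.60, 0.51 and 0.51, adjusted p = 0.000892, 0.00877 and 0.000297). Rpl23, Rps3 and Rps15a led with FK506 6 mg/kg (0.58, 0.57 and 0.47, adjusted p = 5.52e-05, 0.00451 and 0.0116). The 4 members with Rapa 10 mg/kg were Rps15a, Rpl12, Rps6 and Rps23 (0.39, 0.32, 0.30 and 0.25, adjusted p = 0.0281, 0.00499, 0.0126 and 0.0388). With the hybridization controls as a covariate the FK506 6 mg/kg count was 5.

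In vehicle kidneys the members were not called at day 7, 14 or 28 against day 1, with medians of -0.05, -0.06 and -0.07. At an unadjusted p under 0.05 limma gave 6, 3 and 9 lower and 0 higher. Without quantile normalization 2 members were lower at day 7 (1.82% of all genes), 0 at day 14 and 10 at day 28 (1.74%), with medians of -0.12, -0.15 and -0.19. Age and number of injections rise together in these comparisons and cannot be told apart.

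Dose mattered for CsA at day 28. With CsA 25 mg/kg 31 members were higher than with CsA 2.5 mg/kg and 0 lower (8.75% of all genes higher, median 0.27), and 18 were without quantile normalization (8.5%, median 0.17). Rpl14, Rps15a and Rpl11 had the largest differences (0.46, 0.45 and 0.44, adjusted p = 1.59e-07, 3.89e-05 and 2.2e-10). FK506 6 mg/kg had Rpl3 and Rpl27a higher than FK506 0.6 mg/kg (0.16 and 0.15, adjusted p = 0.0255 and 0.0484), 2 of 42 where 0.61% of all genes were, and none without quantile normalization. Rapa 10 mg/kg against 1 mg/kg gave no call, a median of 0.05 and 3 members higher at an unadjusted p under 0.05 in limma.

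Compared directly at the higher doses, the drugs differed in few members. At day 28 CsA 25 mg/kg had Rpl13a and Rpl14 higher than FK506 6 mg/kg (0.28 and 0.24, adjusted p = 0.0294 and 0.0212), where 2.02% of all genes were. Against Rapa 10 mg/kg it had 7 members higher (16.7% of the members, against 10.4% of all genes), among them Rpl7l1, Rpl24 and Rpl14 (0.22, 0.22 and 0.21), and without quantile normalization 3 higher and 3 lower. FK506 6 mg/kg had Rps3 and Rpl7l1 higher (0.26 and 0.23, 6.83% of all genes) and Rpl21 and Rpl13a lower (-0.38 and -0.23, 4.13%) than Rapa 10 mg/kg. The 2 comparisons of FK506 6 mg/kg with another drug at day 28 had no call with the hybridization controls as a covariate. At day 14 CsA 25 mg/kg had Rpl6, Rps28 and Rpl11 higher (0.28, 0.22 and 0.16, 8%) and Rps27l lower (-0.50, adjusted p = 0.0299, 6.75%) than Rapa 10 mg/kg. Rpl19 was lower with FK506 6 than with Rapa 10 mg/kg at day 14 (-0.16, adjusted p = 0.0414, 4.58%). CsA 25 and FK506 6 mg/kg gave no call between them at days 1, 7 and 14, with 0 higher and 1 lower, 7 higher and 1 lower, and 3 higher and 0 lower at an unadjusted p under 0.05 in limma. At day 7 neither differed from Rapa 10 mg/kg in any called member. The unadjusted counts there were 5 higher and 1 lower for CsA 25 mg/kg and 0 higher and 4 lower for FK506 6 mg/kg.

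At day 1 CsA 25 mg/kg had 6 members lower (4.08% of all genes) and Rpl7l1 higher (2.56%) than Rapa 10 mg/kg. Rpl23a and Rpl23 differed most (-0.30 and -0.24, adjusted p = 0.0273 and 0.0211). Of the 4 CsA 25 mg/kg rats at day 1, 2 had Alb above log2 12, and 7 of 8 liver markers were called higher in that group than in vehicle. Without the arrays with high Alb 1 member was lower and none higher. With the Gapdh ratio as a covariate the count was 0. At day 1 FK506 6 mg/kg had no member called against Rapa 10 mg/kg, with 1 higher and 12 lower at an unadjusted p under 0.05 in limma.

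Probe sets listed for several genes, which the rule leaves out, moved like the members at day 28. There were 35 of them, which name a ribosomal protein beside copies or pseudogenes or, in a few cases, copies or pseudogenes alone. They were taken from a fit over all probe sets. CsA 25 mg/kg had 27 higher and 0 lower, FK506 6 mg/kg 22 higher and 1 lower, and Rapa 10 mg/kg 24 higher and 0 lower. In the main fit, which holds 1 probe set per gene, 10.5%, 8.73% and 7.57% of all genes were higher. That of Rps19, the gene most often mutated in human Diamond-Blackfan anaemia, changed by 0.51, 0.44 and 0.36 with CsA 25, FK506 6 and Rapa 10 mg/kg, that of Rps20 by 0.41, 0.35 and 0.24, and that of Rps27 by 0.33, 0.27 and 0.30. The probe set of Rpl38 was not called with any of these 3. That of Rps4x changed by 0.26 with CsA 25 mg/kg (adjusted p = 0.0179) and was not called with FK506 6 or Rapa 10 mg/kg. The 1 lower probe set, with FK506 6 mg/kg, names the copies Rpl22l1, Rpl22l2 and Rpl22l3 (-0.28, adjusted p = 0.0263). The shared probe set of Rpl10 changed by 0.43, 0.20 and 0.16 and was called each time. Of members whose own probe set was too dim to test, the shared probe set of Rps13 changed by 0.31, 0.25 and 0.17 and the brightest that names Rpl30 by 0.29, 0.17 and 0.25, all called, while that of Rpl28 changed by 0.17, 0.16 and 0.15 and was not called. These values cannot be given to 1 gene.

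Other parts of the translation machinery moved to different degrees. Of 32 translation factors tested, 18 were higher and 0 lower at day 28 with CsA 25 mg/kg, 19 higher and 1 lower with FK506 6 mg/kg, 15 higher and 0 lower with Rapa 10 mg/kg, 11 higher with Rapa 1 mg/kg, and 7 higher and 1 lower with FK506 0.6 mg/kg. Eef1g, a subunit of the elongation factor that reloads Eef1a with GTP, rose by 0.59 with CsA 25 mg/kg, Eif3f, a subunit of an initiation factor, by 0.44, and Eif4a1, an RNA helicase of initiation, by 0.43. Pabpc4, a poly(A) binding protein, rose by 0.53 with FK506 6 mg/kg, Eif4a1 by 0.47 and Eef1g by 0.45. Eef1g, Eif4b and Eif3h led with Rapa 10 mg/kg (0.43, 0.41 and 0.40). Of 5 ribosome-associated genes outside the rule, Rack1, Naca and Rplp0 were higher with each of the 3 higher doses. Rack1, a scaffold on the small subunit, changed by 0.43, 0.28 and 0.23 with CsA 25, FK506 6 and Rapa 10 mg/kg.

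Genes that build ribosomes were called at about or below the share of all genes. Of 54 tested, 6 were higher and 6 lower with CsA 25 mg/kg. With FK506 6 mg/kg it was 2 and 2, and with Rapa 10 mg/kg 3 and 2. The shares higher were 11.1%, 3.7% and 5.56%, against 10.5%, 8.73% and 7.57% of all genes. The shares lower were 11.1%, 3.7% and 3.7%. Their median changes were small, at 0.076, 0.072 and 0.040, against 0.011, 0.009 and -0.006 over all genes. Of the 54, 34, 39 and 33 changed upward. Myc, a transcription factor that drives ribosome synthesis, rose by 1.98, 1.60 and 0.75 (adjusted p = 3.1e-10, 5.35e-08 and 0.00794), and Gtpbp4, a GTPase of large subunit assembly, changed by -1.503, -1.607 and -1.415. Mitochondrial ribosomal proteins make up a separate ribosome. Of 73 of them tested, 4 were higher and 11 lower with CsA 25 mg/kg, 1 and 6 with FK506 6 mg/kg, 0 and 8 with Rapa 10 mg/kg, 1 and 3 with Rapa 1 mg/kg and 3 and 0 with FK506 0.6 mg/kg. The share lower was 15.1% with CsA 25, 8.22% with FK506 6 and 11% with Rapa 10 mg/kg, against 10.7%, 7.29% and 8.16% of all genes.

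Markers of other cells moved with some of the groups. Of 15 macrophage and myeloid markers tested, 15 were higher with CsA 25 mg/kg, 10 with FK506 6 mg/kg, 1 with Rapa 10 mg/kg (and 1 lower), 2 with Rapa 1 mg/kg and 1 with FK506 0.6 mg/kg at day 28. The summed intensity of the 16 markers on the array ran from 11219 to 21678 with CsA 25 mg/kg, 11649 to 20535 with FK506 6 mg/kg, 7430.8 to 13094 with Rapa 10 mg/kg and 8306 to 14725 with Rapa 1 mg/kg, against 8070.2 to 10229 in vehicle kidneys. At day 14 with CsA 25 mg/kg, where 29 members were higher, 12 of the 15 macrophage markers were higher and 0 lower. With Rapa 10 mg/kg, where 23 members were higher, 6 of these markers were lower and 0 higher. With Rapa 1 mg/kg (14 members higher) 7 markers were lower and 0 higher, and with FK506 6 mg/kg (7 members higher) 0 were called. Of 11 lymphocyte markers 3 were above the dim limit, and at day 28 the calls were Cd3g and Lck, lower with Rapa 10 mg/kg (-0.80 and -0.45). Blood markers were higher with both Rapa doses (2 of 3), and of 11 kidney markers 4 were lower with CsA 25, 3 with FK506 6, 3 with FK506 0.6, 1 with Rapa 10 and 0 with Rapa 1 mg/kg, none being higher. Calb1 and Slc12a3 of the distal tubule changed by -3.39 and -1.76 with CsA 25 mg/kg and by -3.04 and -1.72 with FK506 6 mg/kg. The part of these cells in the change of the members was not tested.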

How the data were processed

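RNA of 120 rat kidneys, 1 array each, was measured in 28 groups. Per the labels, cRNA was biotin-labelled, hybridized and scanned, and the values were obtained with the scanner maker's operating software. The authors' deposited values are linear intensities. How the authors summarized probes or scaled arrays is not given in the sources used here. Here log2(intensity + 16) was quantile normalized, and 14217 genes were each represented by their brightest probe set. Of 31099 probe sets, 20826 carried 1 symbol in the platform annotation, 436 several and 9780 none, and 57 were controls. The dimmest 25% of genes (under log2 5.75) were left out. Group means were fitted to the 120 arrays together (limma 3.58.1, R 4.3.3, 92 residual and 2.96 prior degrees of freedom) and tested two-sided, with Benjamini-Hochberg adjustment over 10663 genes in each of 45 comparisons. The method was tested on simulated data with independent noise and with changes larger than the median changes of the members. That test does not cover small shifts shared by correlated genes.

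The members and lists were chosen with earlier results of these data known. Named members were 20 listed genes, the 8 largest called changes in each higher-dose comparison at day 28, up to 3 in each other comparison, and the 4 that followed the others most and least closely and were brightest and dimmest. Rps28 at day 14, Rpl4 at days 1 and 14, Rps4y2 and the members not called were named after their values were seen. Of other lists up to 3 called genes were named. Alternatives were no quantile normalization, centring on the median of the other genes, an offset of 1, no filter, all probe sets, an intensity trend, 1 day's arrays alone, the Gapdh ratio or hybridization controls as covariates, and leaving out the array with zeros, arrays with Alb above log2 12, and each rat in groups of up to 5. RefSeq names were found for 45 members.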

Additional observations from a re-analysis of the deposited data

Results flagged for a closer look

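Rats that stood apart from their group were looked for in 110 groups of values, and 7 did, where chance alone gives about 1 in 20. The median of the members was 12.304 in vehicle replicate 2 at day 7, with the nearest rat at 12.526. It was 12.674 in replicate 1 of CsA 25 mg/kg at day 14 (nearest 12.732) and 12.32 in replicate 2 of CsA 2.5 mg/kg at day 28 (nearest 12.463), an array with Alb at 13.11. Without quantile normalization it was 12.511 in replicate 1 of Rapa 10 mg/kg at day 7 (nearest 12.539). Rps15a was 12.89 in replicate 4 of CsA 25 mg/kg at day 28, Rps3 was 12.23 in replicate 6 of Rapa 1 mg/kg at day 28, and Rpl6 was 12.09 in vehicle replicate 2 at day 28.

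Effects at day 28 were larger than those at day 1 by limma's test of the difference in 24 of 42 members with CsA 25 mg/kg (2.83% of all genes). With FK506 6 mg/kg it was 18 members (1.89%) and with Rapa 10 mg/kg 4 (2.19%). The cause was not tested.

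Second, dimmer probe sets of 2 members were called at day 28 in the fit over all probe sets. That of Rpl3 was lower with CsA 25 mg/kg (-1.86, adjusted p = 0.00345), while the brighter probe set of Rpl3 was higher (0.35), so both disagree in direction. The CsA 25 mg/kg group includes the array that holds all the zeros, and the fit over all probe sets was not repeated without it. The second probe set of Rpsa was higher with CsA 25 mg/kg (0.264), FK506 6 mg/kg (0.249) and Rapa 10 mg/kg (0.294), while its brighter probe set was called with Rapa alone of these 3 drugs.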

How the results depend on the processing

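At day 28 the members stayed higher under each alternative for CsA 25, FK506 6, Rapa 10, Rapa 1 and FK506 0.6 mg/kg. The cause of a moved value was not tested. Of all repeats, 552 counts were within 1.5 times and 124 were not, and 555 medians moved by less than the spread between rats and 37 by more. Of called or named genes, 192 values lost the call, 9 gained it and 3 changed sign.

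Without quantile normalization, members called against vehicle numbered 0 for Rapa 1 mg/kg and 1 for Rapa 10 mg/kg at day 1, 2 for CsA 25 mg/kg, 1 for FK506 6 mg/kg, 2 for Rapa 1 mg/kg and 1 for Rapa 10 mg/kg at day 7, and 16 for CsA 25 mg/kg, 1 for FK506 6 mg/kg and 6 for Rapa 1 mg/kg at day 14. Medians were -0.08819 for CsA 2.5 mg/kg and -0.1014 for CsA 25 mg/kg at day 1, 0.00992 for CsA 25 mg/kg and 0.01633 for Rapa 10 mg/kg at day 7, -0.008815 for FK506 0.6 mg/kg and 0.1003 for Rapa 1 mg/kg at day 14, and 0.2182 for FK506 0.6 mg/kg at day 28. CsA 25 against Rapa 10 mg/kg had 11 calls and a median of -0.1635 at day 1 and a median of -0.00168 at day 14, FK506 6 against Rapa 10 mg/kg had 0 calls at day 14, and CsA 25 against FK506 6 mg/kg had 1 at day 28. The dose comparisons had 18 calls for CsA and 0 for FK506, with a median of -0.002263 for FK506. Vehicle against day 1 had 2 calls at day 7, a median of -0.1533 at day 14, and 10 calls and a median of -0.1869 at day 28. The change of effect with Rapa 10 mg/kg had 2 calls.

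Centred on the median of the other genes, calls against vehicle numbered 0 for Rapa 1 and 0 for Rapa 10 mg/kg at day 1, 1 each for CsA 25, FK506 6, Rapa 1 and Rapa 10 mg/kg at day 7, 10 for CsA 25, 1 for FK506 6, 4 for Rapa 1 and 15 for Rapa 10 mg/kg at day 14, and 22 for CsA 25, 18 for FK506 6 and 20 for Rapa 10 mg/kg at day 28. Medians at day 1 were -0.09934 for CsA 2.5, -0.1086 for CsA 25, -0.05589 for FK506 6, 0.01161 for Rapa 1 and 0.02806 for Rapa 10 mg/kg. At day 7 they were -0.01377 for CsA 25 and 0.0003574 for Rapa 10 mg/kg, at day 14 0.1561 for CsA 25, 0.004434 for FK506 0.6 and 0.08792 for Rapa 1 mg/kg, and at day 28 0.1922 for CsA 25, 0.2139 for FK506 0.6 and 0.1524 for FK506 6 mg/kg. Rps29 turned to -0.0288 with CsA 25 mg/kg at day 28. FK506 6 against Rapa 10 mg/kg had medians of -0.02054 at day 7 and -0.03941 at day 28 and 0 calls at day 14, and CsA 25 against FK506 6 mg/kg had a median of 0.01172 at day 14 and 1 call at day 28. CsA 25 against Rapa 10 mg/kg had 2 calls and a median of -0.008744 at day 14 and 4 calls at day 28. The dose comparisons had 14 calls and a median of 0.1463 for CsA, and 0 and -0.04867 for FK506. Vehicle against day 1 had 2, 2 and 12 calls and medians of -0.1452, -0.1686 and -0.1955 at days 7, 14 and 28. The change of effect with FK506 6 mg/kg had 9 calls.

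An offset of 1 gave 1 call for FK506 0.6 mg/kg at day 14. Without the filter, and with all probe sets, calls were 0 for both Rapa doses at day 1, 0 at day 7 for FK506 6 mg/kg and 0 at day 14 for FK506 6 against Rapa 10 mg/kg. The FK506 dose comparison had 1 call without the filter and 0 with all probe sets, which also gave 1 for CsA 25 against Rapa 10 mg/kg at day 7. The intensity trend gave 3 for Rapa 1 mg/kg at day 1 and 2 for FK506 6 against Rapa 10 mg/kg at day 14. With the Gapdh ratio as covariate, calls were 0 for both Rapa doses at day 1, with a median of 0.04483 for Rapa 10 mg/kg, 1 for FK506 0.6 mg/kg at day 7, 0 for CsA 25 against Rapa 10 mg/kg at day 1, with a median of -0.09481, 1 for CsA 25 against FK506 6 mg/kg at day 7, 0 for FK506 6 against Rapa 10 mg/kg at day 14 and 1 for the FK506 doses, and the median change of effect with Rapa 10 mg/kg was 0.1954. With the hybridization controls, calls were 1 for FK506 6 mg/kg at day 7, then 0 at day 28 for CsA 25 against FK506 6 mg/kg, FK506 6 against Rapa 10 mg/kg and the FK506 doses, and 5 for the change of effect with FK506 6 mg/kg.

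Without the array with zeros, calls were 2 for Rapa 1 mg/kg at day 1, 3 for FK506 6 against Rapa 10 mg/kg at day 14 and 4 for CsA 25 against FK506 6 mg/kg at day 28. Without the arrays with high Alb they were 0 for Rapa 10 mg/kg at day 1, 1 for FK506 6 mg/kg at day 7, 1 for CsA 25 against Rapa 10 mg/kg at day 1 and 1 for the FK506 doses. With the arrays of 1 day alone, they were 0 for both Rapa doses and 1 for FK506 6 against Rapa 10 mg/kg at day 1, 2 for CsA 25, 1 for FK506 0.6, 0 for FK506 6, 1 for Rapa 1 and 4 for Rapa 10 mg/kg at day 7, and 2 for FK506 6 mg/kg and 0 for FK506 6 against Rapa 10 mg/kg at day 14. At day 28 they were 6 for FK506 0.6 and 15 for Rapa 1 mg/kg, 0 for CsA 25 against FK506 6 mg/kg, 3 for CsA 25 against Rapa 10 mg/kg, 1 for FK506 6 against Rapa 10 mg/kg and 0 for the FK506 doses.

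With 1 rat left out in turn, calls against vehicle ranged from 0 to 1 for Rapa 1 and 0 to 2 for Rapa 10 mg/kg at day 1. At day 7 they ranged from 4 to 8 for CsA 25, 1 to 5 for FK506 0.6, 0 to 3 for FK506 6, 2 to 4 for Rapa 1 and 4 to 10 for Rapa 10 mg/kg. At day 14 they ranged from 0 to 1 for FK506 0.6, 1 to 8 for FK506 6, 7 to 16 for Rapa 1, 20 to 28 for CsA 25 and 18 to 24 for Rapa 10 mg/kg. At day 28 they ranged from 10 to 19 for FK506 0.6, 29 to 37 for CsA 25, 27 to 31 for FK506 6, 21 to 26 for Rapa 1 and 30 to 32 for Rapa 10 mg/kg, where groups of 6 were left whole. Rps27l with CsA 25 mg/kg at day 28 ranged from -0.1905 to 0.02744, positive without vehicle replicate 5, and Rpl26l1 with FK506 6 mg/kg from -0.155 to 0.01581, positive without its replicate 1. No paired analysis was possible because replicate numbers were given in the order of the samples and pair no rats. Signal over background limits the dim members, and saturation of the bright ones cannot be judged from these values.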
